A study of Mus musculus with 9 samples.

Results

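Cytosolic ribosomal protein genes were followed in macrophages grown from the bone marrow of C57BL6 mice, primed with LPS (lipopolysaccharide, a part of the outer membrane of many bacteria that macrophages sense) and then exposed to an organotin. The genes were chosen by symbol, as all large subunit (Rpl and Rplp) and small subunit (Rps and Rpsa) genes that had a probe set naming 1 gene, and each was represented by its brightest probe set over the 9 arrays. This gave 46 genes of the 18193 measured, 24 of the large and 22 of the small subunit. The choice used the overall level of a probe set and no difference between groups. A further 28 ribosomal protein genes, among them Rpl3, Rpl5, Rpl10 and Rplp1, were on the array only as probe sets that name several genes, and these were not analysed here.

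The groups were LPS+TMT (trimethyltin, given as the hydroxide, 1.25 µM), LPS+TET (triethyltin, given as the bromide, 10 µM) and LPS+saline, each with 3 biological replicates on 1 array each. The organotins differ in carrying methyl or ethyl groups on tin, and they were given at different doses. All cells, the saline cells included, came from mice 6 to 12 weeks old, were grown from marrow in medium with L929 conditioned medium, received 33 ng/mL LPS for 3 h on day 6 in vitro, and were then exposed for 6 h. The series sets each organotin against saline under conditions that activate the NLRP3 inflammasome, and no group without LPS is among the samples. No source used here says that replicates came from separate mice, so a p-value covers only how much these samples vary, which may be technical.

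The cytosolic ribosome consists of a small subunit, which reads the mRNA, and a large subunit, which joins amino acids, and each holds 1 set of ribosomal proteins around ribosomal RNA. Most ribosomal protein mRNAs of mammals start with a cytosine followed by a run of pyrimidines, the 5′ terminal oligopyrimidine (TOP) motif. Through it the kinase mTORC1 and the binding protein LARP1 set how much of the mRNA is translated and how well it is kept. An expression array measures the amount of mRNA and not its translation. In these bulk samples fewer cells of a type and less RNA per cell cannot be told apart.

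The arrays carried macrophage RNA. All 10 macrophage markers lay above the median of all genes in every group, and their summed signal was 16.62 to 16.81 under TMT, 16.50 to 16.61 under TET and 16.71 to 16.75 in saline (log2). Of 6 measured neutrophil markers, 3 lay above that median in each group, with S100a8 and S100a9 the brightest. Their summed signal was 11.19 to 11.70 under TMT, 10.84 to 10.98 under TET and 11.63 to 11.88 in saline. None of the 4 measured B cell markers reached the median in any group, and their summed signal was 7.26 to 7.41 under TMT, 7.74 to 7.88 under TET and 7.40 to 7.66 in saline. Under TET, 4 of 5 stromal and endothelial, 3 of 4 B cell, 3 of 5 T cell and 2 of 2 measured erythroid markers rose (limma, adjusted p under 0.05), where 27.4% of all genes rose. Of the dendritic cell markers 2 of 5 rose, and of the mast cell and basophil markers 0 of 4. Of the 6 neutrophil markers 0 rose and 2 fell. Dim signals of any kind tended upward, since the 7023 genes with a mean signal under 6 had a median log2 fold change of 0.19 under TET. The summed signal of the stromal and endothelial markers was 8.38 to 8.80 under TMT, 9.05 to 9.33 under TET and 8.45 to 8.68 in saline. That of the T cell markers was 7.96 to 8.01 under TMT, 8.31 to 8.56 under TET and 8.13 to 8.16 in saline, and that of the erythroid markers 5.97 to 5.99 under TMT, 6.41 to 6.59 under TET and 5.78 to 5.94 in saline. The part of these cells in the results was not tested. The TET arrays had a narrower spread of signal, with an interquartile range of 3.45 to 3.55, against 3.78 to 3.86 under TMT and 3.83 to 3.88 in saline. TMT replicate 2 stood apart from the other TMT arrays, with an SD of its difference from their mean of 0.26 over all genes, against 0.16 and 0.21 for replicates 1 and 3. The same measure was larger on every TET array, at 0.32, 0.28 and 0.31, and was 0.16, 0.17 and 0.15 in saline.

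Ribosomal protein mRNAs were among the brightest signals on the arrays. Of the 46 genes, 35 had a mean log2 signal of at least 12 and 8 of at least 14, and 19 were among the 100 brightest genes. Rpl41, which encodes the smallest ribosomal protein, was the brightest of the 46 on every array, at 14.61, 14.63 and 14.60 under TMT, 14.79, 14.79 and 14.75 under TET, and 14.61, 14.60 and 14.63 in saline. The 3 TET arrays lay above all others, and there Rpl41 was the highest value of the whole array. Rps29, Rplp2 and Rpl38 followed, with means over the 9 arrays of 14.43, 14.31 and 14.28. The highest value of any probe set was 14.62 to 14.79 over the arrays, so these genes lay close to the top of the measured range. At the other end, 8 genes had a mean under 8, the lowest being Rps16 (3.55), Rpl3l (6.27), Rpl37 (6.40) and Rps4l (6.75). Signals of different probe sets are not on 1 scale of abundance, so a dim probe set does not show a scarce mRNA.

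**Figure D1:**
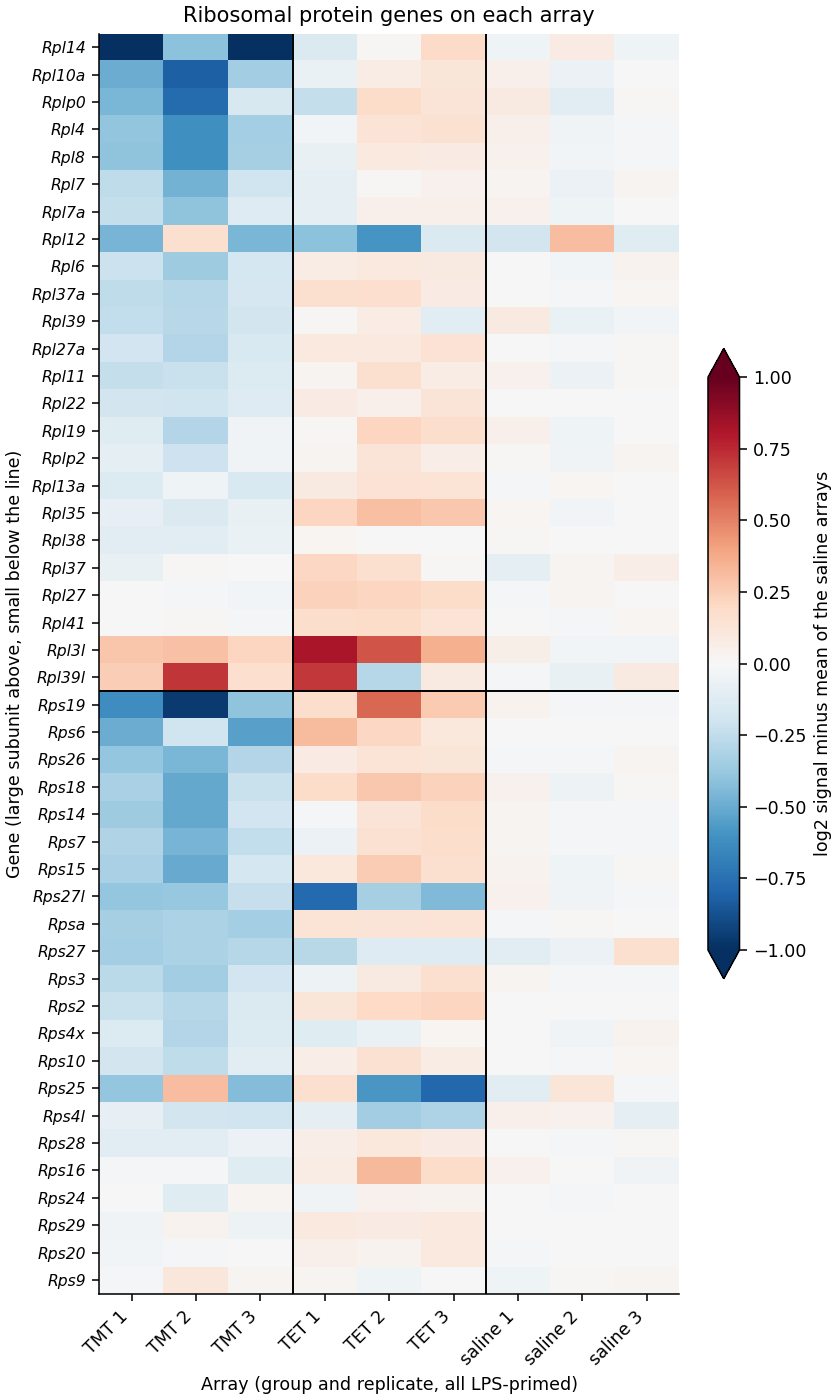
Log2 signal of each of the 46 ribosomal protein genes on each of the 9 arrays, as the difference from the mean of the 3 saline arrays of that gene (colour, limited to −1 and 1). Columns are TMT, TET and saline replicates, rows are genes sorted by their TMT difference within the large subunit (above) and the small subunit (below). Most genes are blue in the TMT columns, while the TET columns are pale red for most, with Rps27l, Rps27 and Rps4l among those in blue.

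TMT against saline asked which ribosomal protein mRNAs differ after exposure to trimethyltin. After TMT, 17 of the 46 genes fell and 0 rose at an adjusted p under 0.05 (limma, adjusted over 18193 genes), against 13.4% of all genes that fell and 14.3% that rose. The 17 were 7 of 24 large subunit and 10 of 22 small subunit genes. The log2 fold change was negative in 43 of the 46, with a median of −0.21 in the large and −0.24 in the small subunit, against 0.01 over all genes. In 32 of the 46 genes all 3 TMT arrays lay below all 3 saline arrays, which held for 21% of all genes. The falls were small, from 1.18-fold to 1.87-fold, and 1 of the 46 genes passed a test against a 1.2-fold change.

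The mean over the 35 genes with a signal of at least 12 was 13.44, 13.35 and 13.51 on the TMT arrays, 13.69, 13.79 and 13.77 on the TET arrays, and 13.69, 13.65 and 13.67 on the saline arrays. The TMT arrays lay below all others, while TET and saline arrays were adjacent. The 884 other genes of that brightness had means of 12.75 to 12.79 under TMT, 12.69 to 12.74 under TET and 12.79 to 12.80 in saline, lowest in TET. Of those other bright genes 22.2% fell and 17.9% rose under TMT, whereas 14 of the 35 ribosomal protein genes (40%) fell.

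The largest fall in the large subunit was that of Rpl14, which encodes a protein on the solvent side of the subunit. Its signal was 7.98, 8.75 and 8.04 under TMT, 9.02, 9.17 and 9.35 under TET, and 9.12, 9.24 and 9.12 in saline. The TMT arrays lay below all others and replicate 2 was closest to them, while TET and saline arrays overlapped. Rpl14 fell 1.87-fold under TMT (log2 fold change −0.90, 95% interval −1.32 to −0.49, limma adjusted p = 0.0041). Rpl10a, which encodes the protein of the mobile L1 stalk at the exit site, had 13.06, 12.74 and 13.21 under TMT, 13.49, 13.63 and 13.68 under TET, and 13.61, 13.50 and 13.57 in saline. It fell 1.47-fold (−0.55, −0.83 to −0.28, limma adjusted p = 0.0063), and again only TMT arrays stood apart.

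Rpl4 and Rpl8 encode core proteins of the large subunit, near the exit tunnel and the catalytic centre. Rpl4 had 12.97, 12.75 and 13.02 under TMT, 13.34, 13.50 and 13.52 under TET, and 13.41, 13.32 and 13.35 in saline, and it fell 1.37-fold (−0.45, −0.67 to −0.23). Rpl8 had 12.61, 12.39 and 12.67 under TMT, 12.93, 13.10 and 13.09 under TET, and 13.05, 12.98 and 12.99 in saline, with the same fold (−0.45, −0.67 to −0.23). Limma's adjusted p was 0.006 for Rpl4 and 0.0059 for Rpl8, and the TMT arrays of both lay below all others. Rpl7 (−0.31), Rpl6 (−0.25) and Rpl37a (−0.24) also fell, with adjusted p-values of 0.036 to 0.048.

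The P stalk of the large subunit recruits translation factors. Rplp0, which encodes its base, had 12.49, 12.18 and 12.79 under TMT, 12.70, 13.13 and 13.07 under TET, and 13.04, 12.84 and 12.96 in saline. The TMT arrays were below saline but overlapped with TET, and the difference did not pass (−0.46, −0.82 to −0.10, limma adjusted p = 0.06). Rplp2, which encodes a tip protein of the stalk, had −0.12 (−0.30 to 0.07, adjusted p = 0.39) at a mean signal of 14.31. Rpl11 encodes a protein that, with the RPL5 protein and 5S RNA, can bind the p53 regulator MDM2, and it had −0.20 (−0.38 to −0.01, adjusted p = 0.11).

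In the small subunit the largest fall was that of Rps19, a gene mutated in the human anaemia named after Diamond and Blackfan. It had 11.92, 11.58 and 12.14 under TMT, 12.72, 13.12 and 12.80 under TET, and 12.57, 12.52 and 12.52 in saline, so the 3 groups did not overlap. Rps19 fell 1.58-fold under TMT (−0.66, −0.99 to −0.33, limma adjusted p = 0.0071). Rps6, which encodes the substrate of the S6 kinases downstream of mTORC1, had 9.63, 9.93 and 9.59 under TMT, 10.45, 10.34 and 10.23 under TET, and 10.13, 10.13 and 10.13 in saline. The 3 saline values of Rps6 were identical (SD 0), and the reason was not tested. Other genes had repeated values too, such as Rps14 with 13.4473 on saline replicates 2 and 3. Counts of identical values between replicate arrays were 568 to 659 in saline, 576 to 716 under TMT and 186 to 200 under TET. Such values narrow the spread within a group, and their part in the p-values was not tested. The 3 groups of Rps6 did not overlap either, and it fell 1.33-fold (−0.41, −0.65 to −0.17, limma adjusted p = 0.015).

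Rpsa, also known as the laminin receptor precursor, had close replicates. It had 13.72, 13.74 and 13.71 under TMT, 14.19, 14.19 and 14.19 under TET, and 14.05, 14.06 and 14.06 in saline, and fell 1.26-fold under TMT (−0.33, −0.50 to −0.17, limma adjusted p = 0.0068). Rps26, whose protein lines the mRNA exit channel, averaged 13.08 ± 0.084 under TMT, 13.57 ± 0.032 under TET and 13.46 ± 0.022 in saline (SD, n = 3), and fell 1.3-fold under TMT (−0.38, limma adjusted p = 0.0051). In both genes the arrays of the 3 groups did not overlap, in the order TMT, saline, TET. Rps18 (−0.36), Rps14 (−0.35), Rps7 (−0.34), Rps15 (−0.33), Rps27 (−0.31) and Rps3 (−0.27) fell as well, with adjusted p-values of 0.017 to 0.046, and in each the TMT arrays lay below the saline arrays. Rps14 is the gene tied to anaemia in the human 5q deletion, and Rps3 encodes a protein at the mRNA entry channel.

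The call of 7 of the 17 genes held whichever single array was left out, namely Rpl10a, Rpl14, Rpl4, Rpl8, Rps19, Rps26 and Rpsa. The count was 8, 9 and 7 without saline replicates 1, 2 and 3, and 8, 9 and 13 without TMT replicates 1, 2 and 3. Without 1 TET array it was 16 to 19. With array weights, which gave TMT replicate 2 a weight of 0.396 and TMT replicate 1 a weight of 8.13, 30 genes fell and 1 rose. The TET arrays had weights of 0.352, 0.629 and 0.374.

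**Figure D2:**
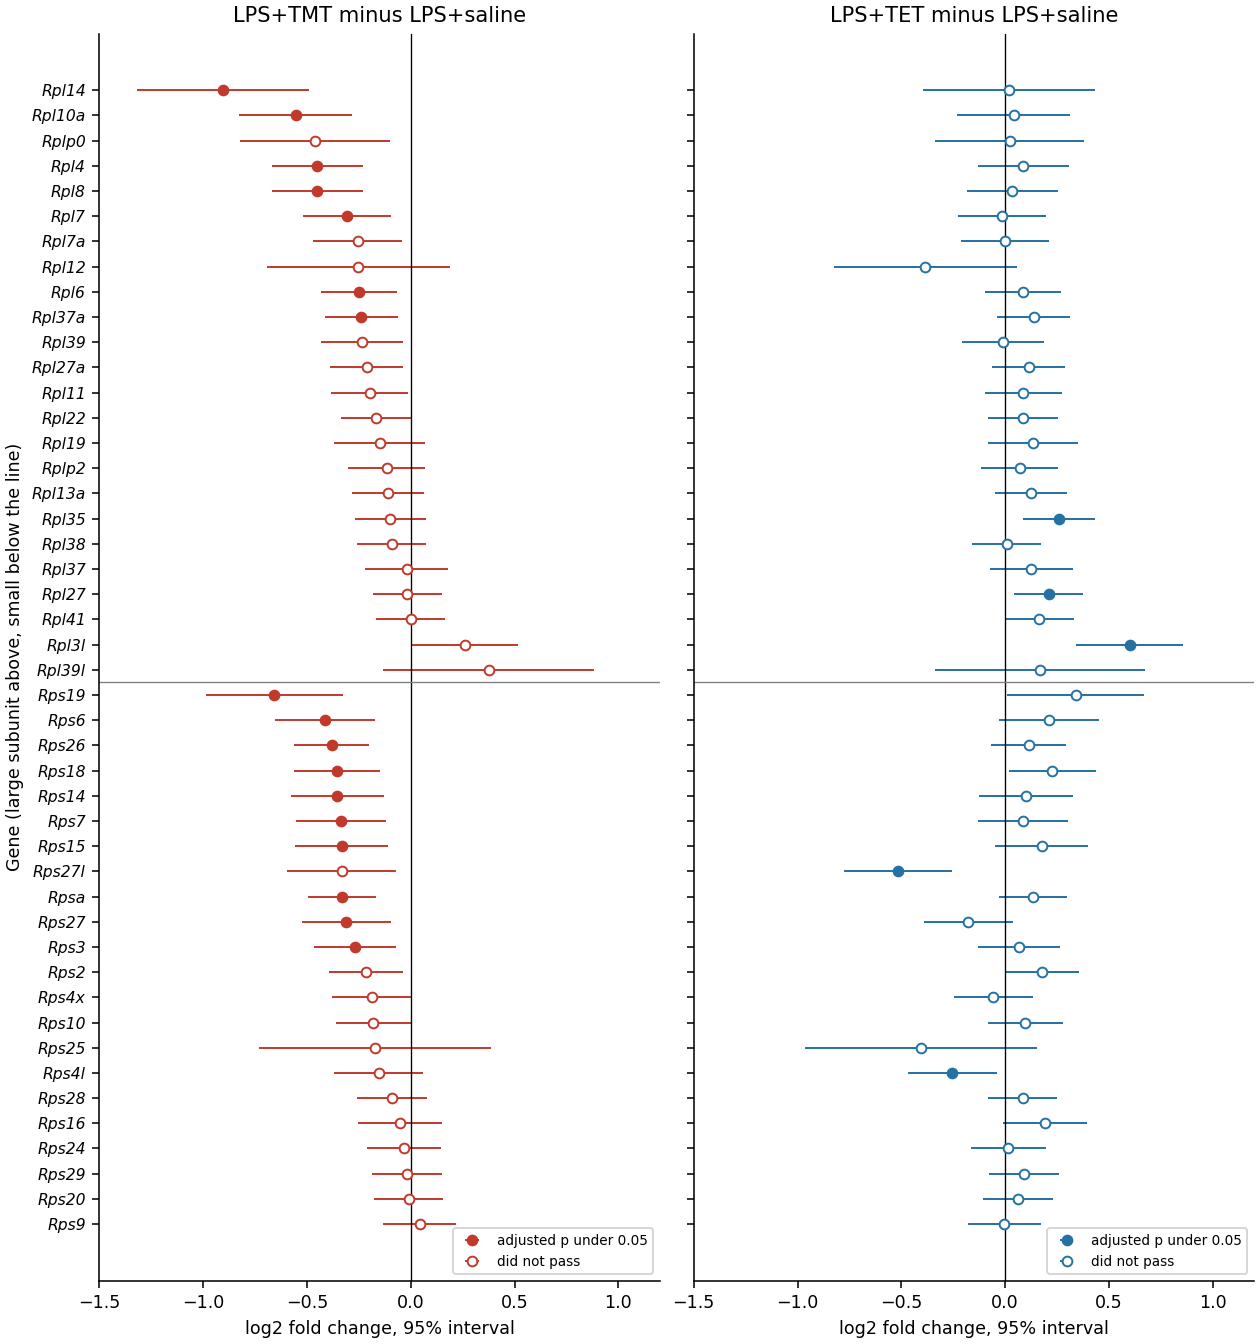
Log2 fold change of each ribosomal protein gene with its 95% interval from limma, for TMT minus saline (left) and TET minus saline (right), large subunit above and small subunit below the line. Filled points passed an adjusted p of 0.05. The 17 filled points on the left are all negative, and on the right 3 are positive and 2 negative.

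Among the 35 genes with a signal of at least 12, the fall under TMT was smaller for brighter probe sets. Of the 5 genes with a mean signal of 12 to 13, 3 fell, with a median log2 fold change of −0.45. Of 22 genes at 13 to 14, 11 fell (median −0.24), and of the 8 genes at or above 14, 0 fell (median −0.09) and limma's lowest adjusted p was 0.37. Among all genes of the same 3 ranges, 43.6%, 35.6% and 13.9% were called in either direction, so few genes of any kind were called at 14 and above. Except for Rplp2, each of the 8 was on a probe set ending in x_at, which marks probes able to bind related transcripts. Without probe sets ending in _s_at or _x_at, the median under TMT was −0.24 in the large and −0.33 in the small subunit. Whether the smaller falls go with level or with probe type was not tested. Over the 35 genes, Spearman's rho between level and fold change was 0.79 and Pearson's r 0.76, and over all 46 genes rho was 0.32 and r −0.13, given as a description because the points share arrays and the fold is computed from the same signals. Over all genes the median absolute fold change under TMT was also smaller in brighter bins, 0.25 at 12 to 13, 0.18 at 13 to 14 and 0.092 at 14 and above. The median SD within groups was smaller in the same bins, at 0.095, 0.062 and 0.034.

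**Figure D3:**
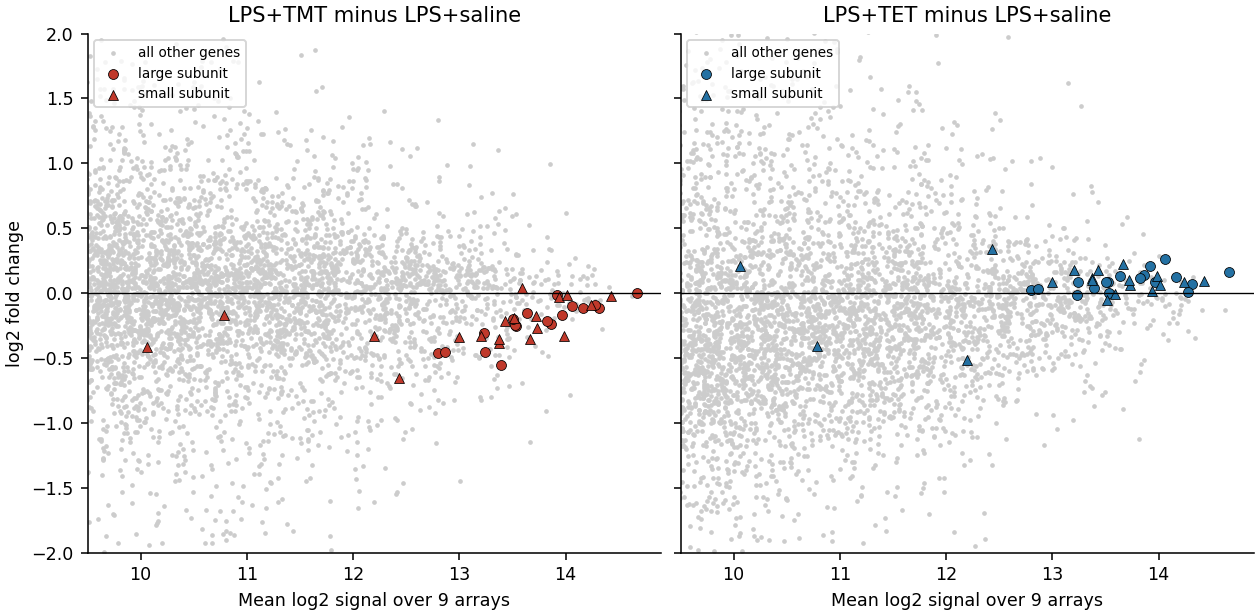
Log2 fold change against the mean log2 signal over 9 arrays, for TMT minus saline (left) and TET minus saline (right). Large symbols are ribosomal protein genes and grey points are all other genes; the plot starts at a signal of 9.5, which leaves out 9 of the 46 genes, and is limited to −2 and 2. Under TMT the ribosomal protein genes lie further below 0 between 12 and 13 than above 14.

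In 23 genes several probe sets could be compared, though their levels are not on 1 scale. Rpl13a, whose protein is released from the ribosome in human monocytic cells given interferon-γ and then silences inflammatory mRNAs, had 4 probe sets. The brightest, at 14.17, had a log2 fold change of −0.11 under TMT, and those at 12.30, 11.87 and 11.02 had −0.52, −0.28 and −0.39. With all single-gene probe sets adjusted together, limma's adjusted p was 0.41 for the brightest and 0.00178, 0.0497 and 0.00901 for the others, so the 3 dimmer probe sets fell. Rps20 had −0.01 on both of its probe sets near 14 (14.01 and 13.96), and −0.82 and −0.76 on those at 7.10 and 6.31, both of which fell (adjusted p = 0.0013 and 0.032). Rpl22 had −0.17 and −0.22 at 13.96 and 13.59, and fell by 0.85 on the log2 scale at 7.28 (adjusted p = 4.2e-04). Dimmer probe sets did not always move more. Rps18 had −0.36 on its brightest probe set, −0.29 at 13.55, −0.52 at 13.24 and −0.53 at 7.63. On its dimmest probe sets, at 3.85 and 3.61, it had −0.04 and −0.09.

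Over the 23 genes with several probe sets, the brightest and the dimmest had the same sign in 18 under TMT, and the dimmest had the larger size in 10. The median log2 fold change was −0.19 for the brightest and −0.21 for the dimmest. Of all 100 single-gene probe sets of the 46 genes, 28 fell and 0 rose, where 13.6% of all single-gene probe sets on the array fell and 12.3% rose. With the second brightest probe set in place of the brightest, 11 genes fell, and with the dimmest, 10. The 5 genes with opposite signs were Rps24, Rps29, Rps3, Rps4x and Rps9. Rps3 had −0.27 at 13.73 but 0.34 at 8.15 and 0.11 at 5.37. What the dimmer probe sets of a gene detect, such as another transcript end or isoform, was not tested.

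**Figure D4:**
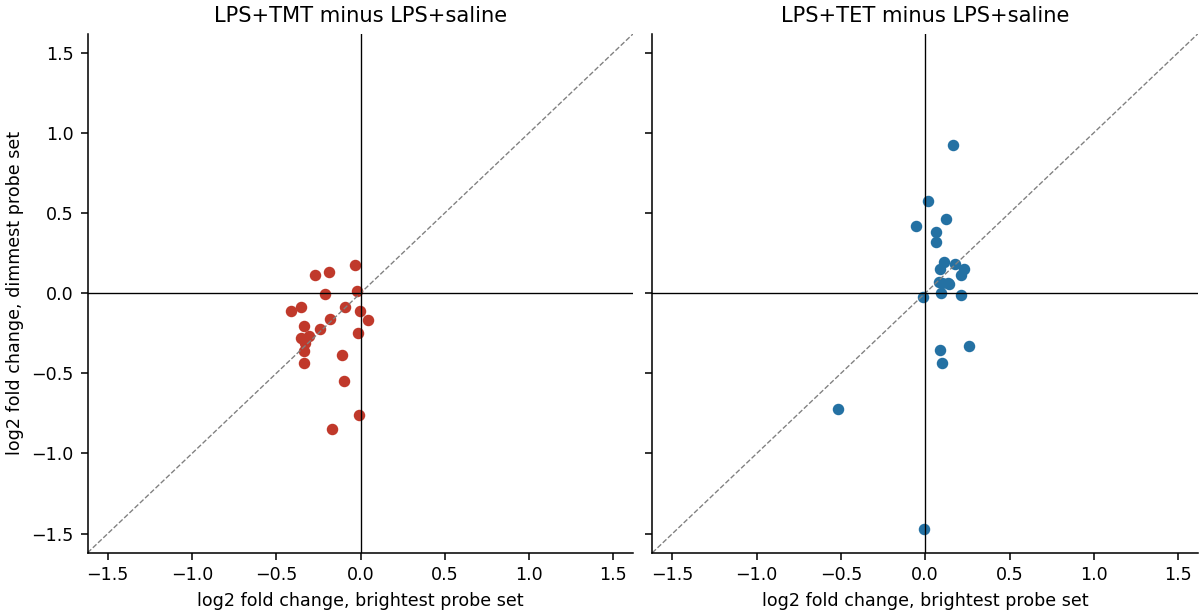
Log2 fold change of the brightest (horizontal) and dimmest (vertical) probe set of each of the 23 ribosomal protein genes with several probe sets, for TMT minus saline (left) and TET minus saline (right). The dashed line marks equal values. Of the 23 points, 18 have the same sign on both axes in each panel, and several lie far from the line.

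Start sites of these genes are shown because the TOP motif lies at the first bases of the mRNA and because many of the genes moved together. RefSeq promoter sequences (GRCm38.p6, 250 bases before to 50 after each annotated start) covered 40 of the 46 genes with 48 starts. A cytosine at the annotated start followed by at least 4 pyrimidines was present at 8 of the 48 (16.7%), against 2.51% of all 32851 promoters. Those 8 starts belonged to 8 genes, 4 of the 14 with a promoter that fell under TMT and 4 of the other 26. Annotated starts can lie some bases from the used start, and no match says only that these letters are not at this position. The windows below run from 15 bases before the start to 15 bases from it on, 5′ to 3′, with the pyrimidine run from the start in capitals. Of the genes that fell under TMT, Rpl14 (chr9:120571502-120571531, plus strand), Rps6 (chr4:86857353-86857382, minus strand), Rps18 (chr17:33955651-33955680, minus strand) and Rps27 (chr3:90213634-90213663, minus strand) read as follows.
Rpl14: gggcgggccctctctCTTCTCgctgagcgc
Rps6: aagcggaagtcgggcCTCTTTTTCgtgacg
Rps18: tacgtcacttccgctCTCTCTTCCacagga
Rps27: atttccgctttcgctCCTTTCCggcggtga

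Of the genes that did not pass under TMT, Rpl35 (chr2:39005117-39005146, minus strand), Rpl38 (chr11:114668565-114668594, plus strand), Rplp2 (chr7:141447636-141447665, plus strand) and Rps10 (chr17:27635230-27635259, minus strand) had such a run.
Rpl35: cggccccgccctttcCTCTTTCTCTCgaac
Rpl38: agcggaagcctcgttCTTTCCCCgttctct
Rplp2: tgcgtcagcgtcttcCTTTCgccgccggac
Rps10: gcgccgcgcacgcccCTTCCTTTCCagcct
Most starts of the ribosomal protein genes had no such run, among them those of Rpl4, Rps26 and Rpsa, which fell under TMT. The first annotated start of Rpl3l, the muscle paralog of Rpl3, is printed as an example without a run (chr17:24727811-24727840, plus strand).
Rpl3l: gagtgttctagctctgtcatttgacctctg

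Upstream, the ETS factor core CCGGAAG, searched on both strands in the 300 bases, was found in 41.7% of the 48 promoters against 8.86% of all promoters. TCTCGCG, searched likewise, was found in 20.8% against 2.56%, and the TATA sequence TATAAA in 10.4% against 13.6%. The ETS core was present in 6 of the 14 genes with a promoter that fell under TMT and in 14 of the other 26, and TCTCGCG in 3 and 6. Base composition was not matched in these shares, and TCTCGCG can overlap its own reverse complement. The 100 bases before the start are printed for Rps6 (chr4:86857368-86857467, minus strand) and for the first annotated start of Rps19 (chr7:24884492-24884591, plus strand), with matches of both motifs on either strand in capitals.
Rps6: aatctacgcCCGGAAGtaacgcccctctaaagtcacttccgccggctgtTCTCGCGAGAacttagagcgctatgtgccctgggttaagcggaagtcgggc
Rps19: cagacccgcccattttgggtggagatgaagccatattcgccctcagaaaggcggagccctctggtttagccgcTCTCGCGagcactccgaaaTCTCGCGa

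TET against saline asked the same for triethyltin, at its higher dose and against the same saline arrays. After TET, 3 genes rose (Rpl3l, Rpl35 and Rpl27) and 2 fell (Rps27l and Rps4l), against 27.4% of all genes that rose and 23.4% that fell, and 41 did not pass (limma). The fold change was positive in 37 of the 46, with a median of 0.09 in either subunit and 0.09 over all genes. In 22 of the 46 all 3 TET arrays lay above the saline arrays, which held for 32.5% of all genes. Other genes with a signal of at least 12 had a median of −0.08, and 31.1% of them fell and 17.4% rose. The split depended on scaling. With each array centred on its median, 1 gene rose and 2 fell, and with each array centred on the other bright genes, 13 rose and 1 fell.

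Rpl3l encodes a paralog of the core protein RPL3, known from heart and skeletal muscle. It had 6.79, 6.61 and 6.33 under TET and 6.26, 6.27 and 6.19 under TMT, against 6.03, 5.95 and 5.95 in saline. The 3 groups did not overlap, all of them below the median gene (6.82). Rpl3l rose 1.52-fold under TET (0.60, 0.34 to 0.86, limma adjusted p = 0.0016) and did not pass under TMT (0.26, adjusted p = 0.13). Among all genes with a mean signal of 6 to 8, the median log2 fold change under TET was 0.12, and 58.9% were called in either direction. Rpl35, whose protein sits at the exit of the peptide tunnel, had 14.22, 14.31 and 14.28 under TET, against 14.03, 13.98 and 14.02 in saline, a rise of 1.2-fold (0.26, 0.09 to 0.43, adjusted p = 0.018). Of its 6 probe sets, 3 near 14 rose when all probe sets were adjusted together, and the dimmest, at 6.00, had −0.33 and did not pass. Rpl27 had 14.08, 14.07 and 14.04 under TET, against 13.84, 13.88 and 13.85 in saline, a rise of 1.16-fold (0.21, adjusted p = 0.039).

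Rps27l encodes a paralog of RPS27 that p53 induces. It had 11.71, 12.15 and 12.04 under TET and 12.10, 12.10 and 12.25 under TMT, against 12.53, 12.45 and 12.47 in saline. The saline arrays lay above both treated groups, which overlapped each other. Rps27l fell 1.43-fold under TET (−0.52, −0.78 to −0.25, limma adjusted p = 0.0045), and all 3 of its probe sets fell when all probe sets were adjusted together. Under TMT Rps27l did not pass on its brightest probe set (−0.33, −0.59 to −0.07, adjusted p = 0.061). With all probe sets adjusted together, its probe set at 11.54 fell under TMT (−0.27, limma adjusted p = 0.048). The brightest and the one at 10.94 did not pass (−0.33 and −0.36, adjusted p = 0.073 and 0.16). Rps27, the partner of Rps27l, had −0.18 under TET (adjusted p = 0.15) on a probe set at 7.22. Rps4l, which RefSeq lists as a transcribed pseudogene, had 6.78, 6.53 and 6.57 under TET, against 6.93, 6.92 and 6.79 in saline (−0.25, adjusted p = 0.0497).

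The calls of Rpl3l and Rps27l under TET held whichever array was left out. Rpl35 did not pass without saline replicate 2 (0.25, limma adjusted p = 0.063) or saline replicate 3. Rpl27 passed in 2 of the 9 fits and Rps4l in 1 of 9. The count of 5 was 3, 2 and 2 without saline replicates 1, 2 and 3, and 3 without TMT replicate 1, TMT replicate 3 or TET replicate 2. With TMT replicate 2 or TET replicate 1 left out it was 6, and without TET replicate 3 it was 4.

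**Figure D5:**
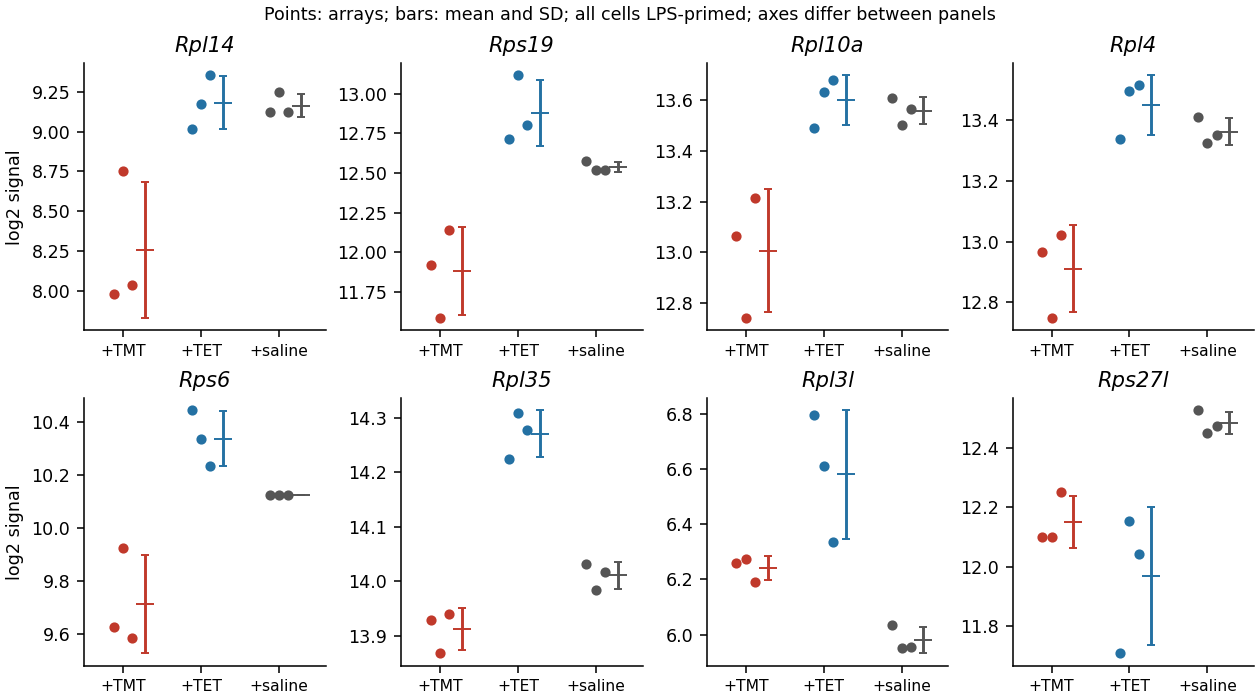
Log2 signal of 8 ribosomal protein genes on each array (points) with the mean and SD of each group (bars, n = 3), for TMT, TET and saline. The vertical axes differ between panels and do not start at 0. Rpl14, Rps19, Rpl10a, Rpl4 and Rps6 are lowest under TMT, Rpl35 and Rpl3l are highest under TET, and Rps27l is highest in saline.

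The organotins were also set against each other, at their different doses. Of the 46 genes, 29 were higher in TET than in TMT and 0 lower (limma), where 28.1% of all genes were higher and 23.7% lower. They were 17 large and 12 small subunit genes. The median difference was 0.29 in the large and 0.26 in the small subunit, against 0.11 over all genes and −0.09 over other genes of at least 12. In 38 of the 46 all TET arrays lay above all TMT arrays, which held for 32.5% of all genes. The largest differences were those of Rps19 (1.00, 0.67 to 1.33, adjusted p = 2.9e-04), Rpl14 (0.92, 0.51 to 1.34, adjusted p = 0.002), Rps6 (0.62, 0.39 to 0.86, adjusted p = 7.7e-04), Rpl10a (0.60, 0.32 to 0.87, adjusted p = 0.0023) and Rps18 (0.58, 0.37 to 0.79, adjusted p = 5.0e-04).

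Of the 17 genes that fell under TMT, 16 were higher in TET than in TMT, and Rps27 did not pass (0.13, limma adjusted p = 0.26). A further 10 were higher in TET than in TMT without passing against saline with either compound, namely Rpl11, Rpl13a, Rpl19, Rpl22, Rpl27a, Rpl7a, Rplp0, Rps10, Rps16 and Rps2. Their differences ran from 0.24 to 0.48. Rps16 had a mean signal of only 3.55, and its difference of 0.25 stood beside a median of 0.19 over all genes under 6. Its call held in 1 of the 9 fits with 1 array left out. The 3 genes that rose under TET, Rpl27, Rpl35 and Rpl3l, were higher than in TMT as well. On their brightest probe sets, 14 genes were called in no comparison. Rpl38, Rpl41, Rplp2, Rps20, Rps28 and Rps29 were 6 of the 8 with a signal of at least 14, where changes of all genes were small. Rps24, Rps4x and Rps9 lay between 13 and 14, and Rpl12, Rpl37, Rpl39, Rpl39l and Rps25 below 12. Some of these genes had dimmer probe sets that passed under TET with all probe sets adjusted together (limma), in either direction. Rps24 had −2.97 at 7.36 (adjusted p = 1.3e-06) but 0.57 at 6.07 (adjusted p = 0.0018). Rps20 had 0.99 at 7.10 (adjusted p = 2.0e-04), and Rps9 had −1.47 at 8.04 (adjusted p = 5.1e-05). Rpl39l, a paralog of Rpl39 known from testis, had 7.29, 7.76 and 7.21 under TMT, 7.75, 6.76 and 7.14 under TET, and 7.03, 6.98 and 7.14 in saline, a spread between TET replicates larger than any difference between groups. Of the 29 genes 19 kept their call whichever array was left out, and the count was 20 to 28 over those fits.

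Other genes of the ribosome and of translation were measured on the same arrays, and their differences are given as log2 fold changes. The counts of each list stand against 13.4% of all genes that fell and 14.3% that rose under TMT, and 23.4% that fell and 27.4% that rose under TET. These shares include many dim genes, which were seldom called under TMT. Of genes with a signal of 8 to 10 and 10 to 12, where many listed genes lay, 48.1% and 49.6% were called in either direction under TMT. Under TET 69.4% and 65.3% were, against 27.8% of all genes under TMT and 50.8% under TET. Of 5 genes outside the symbol rule, 2 fell under TMT and 0 rose (median −0.20), and 2 rose and 1 fell under TET (median 0.11, limma). They were the ribosomal protein genes Fau and Rps3a1, the paralogs Rpl22l1 and Rpl7l1, and Rps19bp1, which encodes a protein that binds RPS19. Rps19bp1 changed most, rising 2.54-fold under TET (1.34, adjusted p = 3.5e-06), and did not pass under TMT (0.12, adjusted p = 0.50). Rpl7l1 had −0.05 under TMT (adjusted p = 0.80) and fell by 0.37 under TET (adjusted p = 0.0085). Rpl22l1, a paralog of Rpl22, averaged 11.41 ± 0.12 under TMT, 12.35 ± 0.23 under TET and 12.01 ± 0.01 in saline (SD, n = 3). It fell by 0.60 under TMT (adjusted p = 0.0035) and rose by 0.34 under TET (adjusted p = 0.037). Rps3a1 fell by 0.42 under TMT (adjusted p = 0.0075). Of 17 measured translation factors and other proteins whose mRNAs carry TOP motifs, 10 fell and 0 rose under TMT (median −0.41), and 5 rose and 1 fell under TET (median 0.09). Against TMT, 13 of them were higher in TET and 0 lower (median 0.53). Nap1l1, a histone chaperone gene, averaged 10.88 ± 0.07 under TMT, 12.08 ± 0.25 under TET and 12.04 ± 0.12 in saline, with a log2 fold change of −1.17 under TMT (adjusted p = 7.0e-05). Npm1, encoding nucleophosmin, fell by 0.49 under TMT and rose by 0.24 under TET (adjusted p = 0.0011 and 0.03). Eif4b, encoding an initiation factor, rose by 0.90 under TET (adjusted p = 8.5e-05) and had −0.31 under TMT (adjusted p = 0.061).

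Regulators of TOP mRNAs and of mTORC1 went both ways. Of 18 measured, 4 rose and 5 fell under TMT (median −0.02), and 9 rose and 4 fell under TET (median 0.15, limma). Larp1, encoding the TOP binding protein, averaged 12.00 ± 0.29 under TMT, 11.86 ± 0.24 under TET and 12.64 ± 0.07 in saline, and fell with either compound (−0.64, adjusted p = 0.011, and −0.78, adjusted p = 0.0022). Eif4ebp1, encoding a translation repressor that mTORC1 inactivates, rose by 1.27 under TMT and 0.68 under TET. Sesn1, encoding an inhibitor of mTORC1, rose by 2.16 and 1.03. Deptor, encoding another inhibitor, averaged 5.51 ± 0.19 under TMT, 6.47 ± 0.15 under TET and 7.51 ± 0.13 in saline, and fell 3.99-fold under TMT and 2.05-fold under TET. These calls had adjusted p-values of 1.61e-06 to 0.0135.

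Escort proteins carry new ribosomal proteins to the nucleus or to their place in the ribosome. Of 15 measured, 9 fell and 0 rose under TMT (median −0.44), and 3 rose and 4 fell under TET (median −0.03, limma), the counts under TET being near the 27.4% and 23.4% of all genes. Grwd1, encoding the escort of RPL3, averaged 9.08 ± 0.31 under TMT, 8.45 ± 0.38 under TET and 10.41 ± 0.13 in saline, and fell with either compound (−1.33 under TMT and −1.96 under TET). Heatr3, encoding a protein that escorts RPL5 in human cells, fell with either compound (−0.98 under TMT, adjusted p = 9.7e-05, and −1.23 under TET, adjusted p = 1.2e-05). Ltv1, needed for the RPS3 protein, fell by 1.08 under TMT (adjusted p = 8.7e-06) and had 0.07 under TET (adjusted p = 0.52). The importin gene Ipo5 fell by 0.78 under TMT (adjusted p = 1.2e-04) and rose by 0.73 under TET (adjusted p = 1.1e-04). Among 12 transcription factors known for ribosomal protein genes or their regulators, 4 rose and 3 fell under TMT (median −0.01), and 5 rose and 3 fell under TET (median 0.15). Myc averaged 7.33 ± 0.23 under TMT, 9.66 ± 0.36 under TET and 8.71 ± 0.08 in saline, and fell under TMT (−1.38, adjusted p = 2.0e-04) and rose under TET (0.95, adjusted p = 0.0013). Tbpl1, encoding a TBP-related factor that in Drosophila acts at ribosomal protein promoters, rose by 0.43 under TMT (adjusted p = 0.0044) and 1.71 under TET (adjusted p = 2.3e-07). The MYC antagonist Mnt rose by 2.85 under TMT and 2.42 under TET, and Gabpa, encoding an ETS factor, fell by 0.75 under TMT (adjusted p = 0.0014).

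Of 13 genes of ribosome quality control, 1 rose and 6 fell under TMT (median −0.09), and 2 rose and 5 fell under TET (median −0.13, limma). Map3k20, encoding the kinase ZAK that senses collided ribosomes, averaged 7.13 ± 0.19 under TMT, 9.61 ± 0.25 under TET and 9.48 ± 0.05 in saline, and fell under TMT (−2.34, adjusted p = 1.1e-06). Zfp598, encoding a ubiquitin ligase that marks collided ribosomes, fell with either compound (−0.89 under TMT, adjusted p = 2.1e-05, and −0.51 under TET), as did Nemf, encoding a protein that binds stalled large subunits (−0.41 under TMT and −0.89 under TET, adjusted p = 7.1e-05). Usp10, encoding a deubiquitinase of small subunit proteins, fell with either compound (−0.53 under TMT and −1.78 under TET). Of 4 genes of the p53 axis that free ribosomal proteins can act on, 1 rose and 2 fell with either compound (median −0.36 under TMT and −0.20 under TET). Mdm2 averaged 11.85 ± 0.21 under TMT, 13.51 ± 0.05 under TET and 11.43 ± 0.12 in saline, a rise of 0.42 under TMT (adjusted p = 0.02) and 2.09 under TET (adjusted p = 3.5e-07). Cdkn1a, another p53 target, fell with either compound (−0.80 under TMT and −0.76 under TET).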

How the data were processed

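Per the submitters' processing notes, the Affymetrix mouse arrays were processed with affy and RMA, with no version named. The values the authors deposited are log2 values of 45037 probe sets on 9 arrays. The base of the logarithm was taken from the values, and joint or separate running of RMA over the arrays is not given in the sources used here. No depth applies to arrays, and their number limits the precision: an exact permutation test of 3 against 3 cannot go below p = 0.1.

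Gene names of probe sets came from the platform annotation, where 34945 named 1 gene, 932 several and 9160 none, and only the first kind was used. The brightest probe set stood for each gene. Groups came from the sample titles. All 9 arrays entered 1 linear model of group means in limma 3.58.1 (R 4.3.3), with two-sided moderated tests adjusted by Benjamini and Hochberg over 18193 genes and a threshold of 0.05. The script was tested on simulated data. Of the ribosomal protein probe sets used, 13 have names ending in x_at and 1 in s_at, which marks probes able to bind related transcripts or several genes. In all, 110 further probe sets name a ribosomal protein gene of the rule together with other genes and were left out.

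The genes described singly were the up to 8 largest rises and falls among those that passed in each comparison, the 4 brightest and 4 dimmest, and ribosomal protein genes with known paralogs or special roles. In other lists the rule allowed the 3 genes with the smallest adjusted p per comparison; not all of these are described, and the choice among them, and of some genes beyond them, was made after their values were seen. The ribosomal protein genes and all lists were chosen with earlier results of these data known. Alternatives covered left-out arrays, scaling, probe set choice, weights, moderation and a replicate block.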

Additional observations from a re-analysis of the deposited data

How the results depend on the processing

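Over 25 alternatives, the count of ribosomal protein genes called under TMT (17) was 7 to 19 when 1 array was left out. It was 10 with the dimmest probe set, 11 with the second brightest, 31 with array weights and 1 when tested against a 1.2-fold change. The count under TET (5) was 2 to 6 with 1 array left out, and 14 when centred on other bright genes. Centred on array medians it was 3, of which more fell than rose. It was 8 with the mean over probe sets, 9 with the dimmest probe set, 8 without probe sets ending in _s_at or _x_at, 10 with trended robust moderation, 1 against a 1.2-fold change and 9 after cyclic loess. With all probe sets tested, or with genes of at least 12 alone, it was 3. For TET against TMT (29) it was 20 to 28 with 1 array left out and 8 against a 1.2-fold change. With the replicate number as a block the counts were 12, 3 and 24. Deviations of same-numbered arrays had correlations of 0.16, 0.31 and 0.02 for TMT and saline. They were −0.13, −0.06 and −0.04 for TET and saline, and −0.10, −0.15 and 0.15 for TET and TMT. Differently numbered arrays had −0.30 to 0.26, −0.04 to 0.10 and −0.26 to 0.26 in the same order. Same-numbered arrays were thus all positive for TMT and saline but not in the other comparisons. The numbers were not taken to pair the samples. Cyclic loess, all probe sets together and genes of at least 12 alone were chosen after seeing the data.

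The subunit medians of the log2 fold change kept their sign in all alternatives run. They ran from −0.31 to −0.15 (large) and −0.33 to −0.14 (small) under TMT. Under TET they ran from 0.01 to 0.17 in either subunit. Of 2208 values of 31 single genes under alternatives, 170 no longer passed, 85 newly passed and 10 turned round. Those that turned round were on other probe sets. Under TMT, Rps3 had 0.059 with the mean over probe sets, 0.11 with the dimmest and 0.34 with the second brightest. Under TET, Rpl22 had −0.35 and Rpl35 −0.33 with the dimmest, Rps3 −0.73 with the second brightest and Rps4x 0.42 with either. For TET against TMT, Rps3 had −0.15 with the mean and −1.07 with the second brightest. The cause was not tested. The highest value of any probe set was 14.62 to 14.79 over the arrays, and how far signals near it can still rise was not tested.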
